A study of Mus musculus with 5 samples.

Results

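Solute carriers are the largest family of membrane transporters in mammals. They move amino acids, sugars, ions, metals, vitamins, nucleosides and lipids across the plasma membrane and across the membranes of organelles, and each cell type uses its own selection. In the liver they supply hepatocytes with bile acids and fatty acids, and they set what endothelial cells, Kupffer cells (the resident macrophages) and stellate cells take from the sinusoidal blood. The transporters were followed here by cell type in the liver non-parenchymal fraction, in sham mice and in mice whose inferior vena cava had been partly ligated (pIVCL), a model of congestion of the liver. The genes were chosen by symbol and abundance: of 342 gene symbols built as Slc, a family number, the letter a and a member number (without the iron exporter gene Slc40a1), 189 held at least 200 molecules summed over all cells of the 5 libraries, out of 19736 genes in all. The other 153 symbols were below that number. Slc2a6 (247 molecules), Slc27a6 (231) and Slc22a30 (224) lay just inside it, and Slc4a11 (195), Slc26a1 (187) and Slc17a2 (180) just outside. All 189 genes were listed in each of the 5 libraries and together held 810571 of 105941014 molecules (0.765%).

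All mice were wild-type males that had surgery (pIVCL or sham) when 9 weeks old, and their livers were taken 2 weeks later. The livers had been perfused with pronase and collagenase, and hepatocytes, dead cells and erythrocytes had been depleted by centrifugation before BD Rhapsody whole-transcriptome capture. The 5 libraries were sham 1, sham 2, pIVCL 1, pIVCL 2 and pIVCL 3. The labels place both sham libraries and pIVCL 1 in batch 2021.3, and pIVCL 2 and pIVCL 3 in batch 2021.7, so sham and pIVCL can be compared within 1 batch only through pIVCL 1. The labels do not number the animals, so a p-value here reflects only how far these samples differ among themselves, part of which may be technical. Depth was 30523228 and 25035721 molecules in sham and 13532840, 24400965 and 12448260 in pIVCL. Of 19815 cells 16670 were retained and 14484 took a cell class from marker genes, with clustering done without any solute carrier. Pairs of libraries shared 8 to 30 cell barcodes.

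The 189 genes fell into substrate groups by family number. There were 36 mitochondrial carriers, 31 transporters of amino acids and peptides, 26 of inorganic ions and pH, 24 of metals, 18 of sugars, 18 of lipids, bile acids and organic ions, 10 of vitamins, choline and heme, 9 monocarboxylate transporters, 5 transporters of nucleotide sugars, 4 of vesicular and lysosomal solutes and 3 of nucleosides. Slc14a1, a urea transporter, stood alone. A further 4 symbols (Slc4a1ap, Slc7a6os, Slc9a3r1 and Slc9a3r2) name adaptor or neighbouring proteins and not transporters. Slc9a3r1 and Slc9a3r2 encode scaffold proteins of the sodium-proton exchangers.

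The transporters with the highest ratio to the next class are given here for each cell class, as plain counts per 1e+06 molecules (plain CPM, the mean of the 5 libraries) and without a test. In T cells, monocytes, neutrophils and clusters 16 and 17 no gene stood 2-fold above every other class. The clearest cases were hepatocytes and cholangiocytes, in which 20 and 9 of the 189 genes stood at least 2-fold above every other class. In hepatocytes Slc10a1, the sodium-dependent bile acid uptake transporter, was at 377, and no other class exceeded 4.64. The liver mitochondrial carrier gene Slc25a47 (336) and the fatty acid transporter and acyl-CoA synthetase gene Slc27a2 (326) were also led by hepatocytes. The hepatocyte values rest on 506 cells, of which 417 came from pIVCL 3. Each library weighs the same in the mean, although sham 2 held only 4 hepatocytes and pIVCL 1 and pIVCL 2 held 24 and 21.

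In cholangiocytes (159 cells) Slc5a1, the intestinal-type sodium-glucose cotransporter, was at 394. It counted 340 molecules there against 4 in all endothelial cells and 3 in all Kupffer cells. Slc39a4, a zinc importer, was at 224, the creatine transporter gene Slc16a12 at 134 and Slc12a8 at 115. The taurine transporter gene Slc6a6 was at 769 in cholangiocytes and at 352 in the next class.

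**Figure D1:**
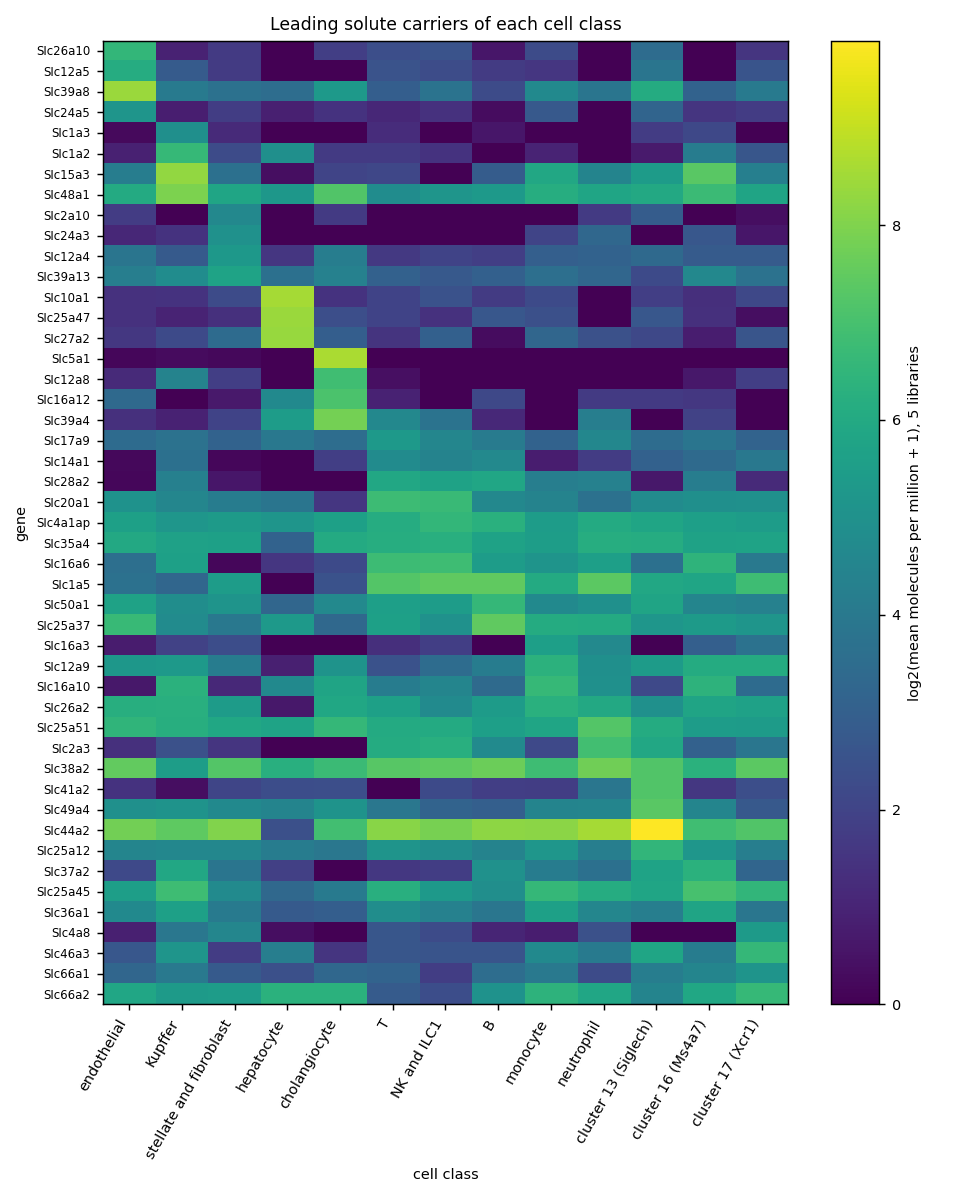
Leading solute carriers of each cell class (rows, ordered by their highest class) across 10 cell classes and 3 clusters kept by number (columns), coloured by log2(mean CPM + 1) over the 5 libraries. Slc5a1 in cholangiocytes and Slc10a1 in hepatocytes are bright in 1 column, while Slc38a2 and Slc44a2 are bright in most.

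Endothelial cells (8866 cells) led 19 of the 189 genes, 5 of them at least 2-fold. Slc26a10, a member of the SLC26 anion transporter family, was at 92.1 in endothelial cells and at 10.3 in the next population. The potassium-chloride cotransporter gene Slc12a5, best known from neurons, was at 69.7 against 13.5, Slc39a8 (a zinc and manganese importer) at 335 against 66.1 and Slc24a5 (an intracellular sodium-calcium exchanger) at 35 against 8.0. In each of these 4 genes the next population was cluster 13, led by Siglech, which was left unnamed because it met the marker rule for endothelial cells and for both conventional and plasmacytoid dendritic cells. Slc43a3, a transporter of purine nucleobases, was carried by endothelial cells (1056) and by stellate cells and fibroblasts (947), against 22.1 in Kupffer cells.

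Kupffer cells (2226 cells) led 23 genes, 2 of them at least 2-fold. These 2 were the glutamate transporters better known from glia, Slc1a3 at 29.7 (next 3.38) and Slc1a2 at 97.9 (next 29.2, hepatocytes). Kupffer cells were also the highest class for several genes of lysosomes and phagosomes. Slc15a3, a lysosomal peptide and histidine transporter, was at 308, the heme transporter gene Slc48a1 at 242 and Slc11a1, the phagosomal metal transporter of macrophages, at 290.

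Stellate cells and fibroblasts (818 cells) led Slc2a10 (23.8), Slc24a3 (31.4), Slc12a4 (37.9) and the zinc transporter gene Slc39a13 (53). In T cells the vesicular nucleotide transporter gene Slc17a9 (38.6), Slc14a1 (26.2), the nucleoside transporter gene Slc28a2 (59.3) and the phosphate transporter gene Slc20a1 (108) were highest. NK cells and ILC1 led Slc4a1ap (91.9), Slc35a4 (74.1), Slc16a6 (112) and the glutamine transporter gene Slc1a5 (176), each within 1.3-fold of T or B cells. B cells led Slc50a1 (96.1) and the mitochondrial iron importer gene Slc25a37 (177). Monocytes led the lactate exporter gene Slc16a3 (46.9), Slc12a9 (81.2), Slc16a10 (98.7) and Slc26a2 (76.2), and neutrophils led Slc25a51 (152), the glucose transporter gene Slc2a3 (118) and Slc38a2 (212). Among the clusters kept by number, cluster 13 led the magnesium transporter gene Slc41a2 (145) and Slc49a4 (163), Slc44a2 (949) and Slc25a12 (90.0). Cluster 16, with C1qc, C1qb, C1qa and Ms4a7 as leading genes, was nearest to Kupffer cells and was left unnamed for low Clec4f. It had its highest ratios for Slc37a2 (77.8), Slc25a45 (128) and Slc36a1 (54.1). Cluster 17, led by Xcr1, had them for Slc4a8 (40.4), Slc46a3 (95.6), Slc66a1 (33.6) and Slc66a2 (98.4). The lymphocyte and myeloid leaders overlapped broadly between neighbouring classes.

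In endothelial cells several named transporters moved in opposite directions after ligation. Genes of uptake of amino acids and sugars and of monocarboxylate transport were among those that rose (Slc16a9, Slc16a6, Slc2a1, Slc45a3, Slc1a5 and Slc45a4, by 3.99-fold to 14.3-fold). Ion, vitamin and mitochondrial carriers were among those that fell, led by Slc26a10 (7.11-fold lower). Amino acid transporters (2 higher, 3 lower) and monocarboxylate transporters (3 higher, 1 lower) were on both sides. Of the 189 genes 163 passed the filter on low counts, and 26 did not. Of the 163, 9 were higher and 13 lower in pIVCL at an adjusted p under 0.05 (edgeR quasi-likelihood test with Benjamini-Hochberg adjustment over all 11178 genes tested). The same rule called 6.22% of all genes tested (3.18% higher and 3.04% lower), which are the shares to hold beside the counts by substrate group below. The median log2 fold change of the 163 was 0.01, as was that of all genes tested.

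The calls rest on few libraries. Calls kept are to be read beside the share of all genes called. This share was 0.758 and 1.17% without sham 1 and sham 2, and 23.5, 2.73 and 1.89% without pIVCL 1, 2 and 3. Without sham 1, sham 2, pIVCL 2 or pIVCL 3 the same test left 3, 5, 7 and 8 of the 22 calls, and without pIVCL 1 it left all 22. Each of the 22 kept its direction in these 5 fits, and Slc16a9, Slc1a5 and Slc26a10 were called in every one of them. The 22 were chosen by their call on these same libraries, so the kept direction and the separation of the groups were largely set by that choice. With batch as a term 8 of the 22 were called, where 3.95% of all genes were. Batch 2021.3 alone sets pIVCL 1 against both sham libraries, with 1 library standing for pIVCL, so its endothelial calls are not counted here. Endothelial cells of the 2 groups lay largely in different clusters: clusters 8, 10, 12 and 15 held 88.3 and 89.7% of the sham cells and 33.8, 5.51 and 4.02% of the pIVCL cells, and clusters 11 and 23 held 4.77 and 3.55% against 61.7, 88.9 and 89.1%.

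Monocarboxylate transporters carry lactate, ketone bodies, creatine and carnitine. Of 9 members 6 were tested in endothelial cells, 3 rose and 1 fell. Slc16a9, the carrier known for carnitine and creatine, stood at 2.21 and 1.04 counts per 1e+06 molecules (CPM, scaled by the trimmed mean of M-values, here and below) in sham 1 and sham 2 and at 19.4, 24.5 and 28.8 in pIVCL 1, 2 and 3. Every pIVCL library lay above both sham libraries, with means of 1.63 ± 0.829 (SD, n = 2) and 24.2 ± 4.69 (SD, n = 3). The log2 fold change was 3.84 ± 0.33 (SE; edgeR adjusted p = 0.000908), and within batch 2021.3 it was 3.51.

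Slc16a6, a ketone body transporter, was at 2.00 and 1.56 CPM in sham and at 7.67, 17.2 and 25.6 in pIVCL. The groups did not overlap, and pIVCL 1, the pIVCL library of the sham batch, was the lowest of its group. Its log2 fold change was 3.17 ± 0.52 (edgeR adjusted p = 0.0168) and 2.07 within batch 2021.3. It was no longer called without sham 1, sham 2 or pIVCL 2, with an adjusted p of up to 0.151 in edgeR.

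The creatine transporter gene Slc16a12 moved the other way, from 22.1 and 14.5 CPM in sham to 5.64, 2.15 and 4.07 in pIVCL, a log2 fold change of -2.21 ± 0.36 (edgeR adjusted p = 0.0131). The lactate transporter gene Slc16a1 was at 9.64 and 12.9 CPM in sham and 11.3, 14.5 and 24.1 in pIVCL, values that overlapped, and did not pass (adjusted p = 0.34). Slc16a3 counted 27 molecules in all endothelial cells and was not tested.

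Among sugar transporters 15 of 18 members were tested, and 4 rose, with none lower at the threshold. Slc2a1 encodes GLUT1, the glucose transporter of blood-tissue barriers. It was low in sham endothelial cells, at 1.21 and 1.91 CPM, and stood at 5.21, 5.16 and 12.8 in pIVCL, with pIVCL 3 the highest. The log2 fold change was 2.24 ± 0.50 (edgeR adjusted p = 0.0347), and the call was lost without any 1 of sham 1, sham 2, pIVCL 2 and pIVCL 3 (adjusted p of up to 0.274). Slc45a3 was at 2.86 and 3.38 CPM in sham against 11.1, 16.3 and 13.9 in pIVCL, and Slc45a4 at 24.7 and 26.6 against 72.5, 157 and 75.5. Both encode members of the proton-coupled sugar transporter family SLC45, and in neither did the groups overlap. Their log2 fold changes were 2.15 ± 0.27 and 2.00 ± 0.36 (edgeR adjusted p = 0.00433 and 0.027). Slc37a1, a glucose 6-phosphate exchanger of the endoplasmic reticulum, was at 4.64 and 6.59 CPM in sham and 11.9, 11 and 14.2 in pIVCL (log2 fold change 1.13 ± 0.25, edgeR adjusted p = 0.0334). The glucose transporter gene Slc2a3 was at 1.14 ± 0.101 CPM in sham (SD, n = 2) and 1.92 ± 0.678 in pIVCL (n = 3) and did not pass (edgeR adjusted p = 0.321).

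**Figure D2:**
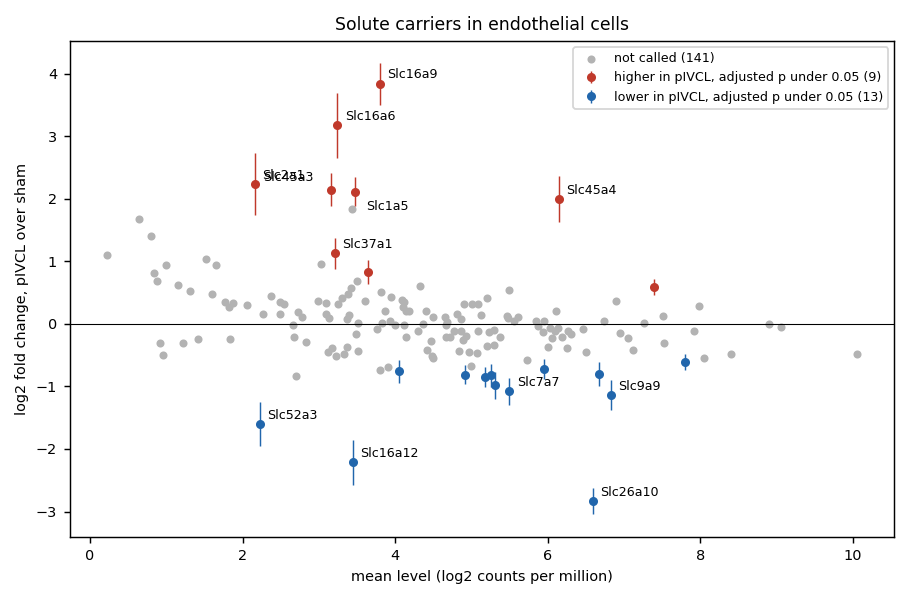
Log2 fold change (pIVCL over sham, y axis) against mean level (log2 CPM, x axis) of the 163 solute carriers tested in endothelial cells, with bars of 1 SE on the 22 called genes. The 9 higher and 13 lower genes are coloured, and those past 1 on the log2 scale are named.

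Promoter sequences are shown for Slc16a9 and Slc2a1, which rose, and Slc26a10, which fell. They stand for the monocarboxylate, sugar and ion groups. Each runs from 250 bases before to 50 bases after the annotated start, 5′ to 3′ on the gene's strand (RefSeq, GRCm38.p6; the counts themselves were made on GRCm39). Capitals mark matches, on either strand, to ACGTG (the core of hypoxia response elements), GGAATG (the core bound by TEAD factors) or TGATGNAA (the composite element bound by ATF4). The window of Slc16a9 is chr10:70245026-70245325 (plus strand), that of Slc2a1 chr4:119108495-119108794 (plus strand) and that of Slc26a10 chr10:127180533-127180832 (minus strand).
Slc16a9: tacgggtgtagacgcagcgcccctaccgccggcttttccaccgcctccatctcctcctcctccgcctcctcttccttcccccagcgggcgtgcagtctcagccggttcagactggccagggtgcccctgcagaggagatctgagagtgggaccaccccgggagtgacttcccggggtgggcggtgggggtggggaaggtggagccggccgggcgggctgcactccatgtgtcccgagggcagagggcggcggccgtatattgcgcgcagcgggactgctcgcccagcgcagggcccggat
Slc2a1: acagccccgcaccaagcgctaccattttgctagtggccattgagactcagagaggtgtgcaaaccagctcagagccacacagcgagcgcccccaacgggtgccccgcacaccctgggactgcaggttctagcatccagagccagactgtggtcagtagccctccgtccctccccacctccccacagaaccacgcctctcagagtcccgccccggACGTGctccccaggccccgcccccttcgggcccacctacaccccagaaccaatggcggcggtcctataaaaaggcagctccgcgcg
Slc26a10: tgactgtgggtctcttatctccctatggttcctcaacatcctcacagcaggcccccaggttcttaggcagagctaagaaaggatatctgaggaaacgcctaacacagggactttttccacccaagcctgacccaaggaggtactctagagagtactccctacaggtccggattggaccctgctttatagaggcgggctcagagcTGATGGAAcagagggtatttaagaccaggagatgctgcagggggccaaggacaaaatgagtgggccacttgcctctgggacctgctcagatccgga

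The Slc2a1 window held 1 match to ACGTG, the Slc26a10 window 1 match to TGATGNAA, and the Slc16a9 window none of the 3 motifs. A match is a string of letters and not a bound site. Over 27025 promoters of this length, 1 per gene symbol, ACGTG was present in 19.7%, GGAATG in 14.6% and TGATGNAA in 4.06%. Of the 189 genes 142 had a promoter in the table, and the shares among them were 29.6, 16.2 and 3.52%. Among the 14 of 22 called genes with a promoter, ACGTG was present in 2 (Slc2a1 and Slc16a12), GGAATG in 1 (Slc25a24) and TGATGNAA in 3 (Slc26a10, Slc7a7 and Slc9a9, which all fell).

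Transporters of amino acids and peptides were split in endothelial cells: of 31 members 25 were tested, 2 rose and 3 fell, with a median log2 fold change of 0.01. Slc1a5, the neutral amino acid exchanger ASCT2 that brings in glutamine, was at 3.36 and 4.51 CPM in sham and at 16.2, 16.6 and 18.3 in pIVCL. The 3 pIVCL libraries lay close together, 4.33-fold above sham by the fit (log2 fold change 2.11 ± 0.23, edgeR adjusted p = 0.00249). Over the fits that left out 1 library its adjusted p was at most 0.0319. Slc15a4, a lysosomal histidine and peptide transporter, was at 8.28 and 8.93 CPM in sham and 15.9, 15.9 and 13.9 in pIVCL (log2 fold change 0.83 ± 0.19, edgeR adjusted p = 0.0367).

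Those that fell carry taurine, cationic and small neutral amino acids. Slc6a6, the taurine transporter, was at 78.2 and 81.8 CPM in sham and 44.6, 43.3 and 59.3 in pIVCL. Slc7a7, the light chain of the y+L exchanger, was at 64.2 and 65.2 against 41.2, 25.5 and 24.4, and the tryptophan and proline transporter gene Slc36a4 at 41.4 and 38.2 against 25.5, 21.2 and 21.2. The pIVCL libraries lay below both sham libraries in each. Their log2 fold changes were -0.72 ± 0.16, -1.07 ± 0.22 and -0.81 ± 0.15 (edgeR adjusted p = 0.0315, 0.0262 and 0.0186).

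Other amino acid transporters that are often followed in stressed or dividing cells did not pass in endothelial cells. The heavy chain gene Slc3a2 was at 253 ± 2.51 CPM in sham and 235 ± 26.2 in pIVCL, and its light-chain partner gene Slc7a5 at 18.4 and 19 CPM in sham against 12.9, 14.2 and 6.68 in pIVCL (edgeR adjusted p = 0.67 and 0.151). The arginine transporter gene Slc7a1 was at 8.71 and 7.89 against 10.7, 12.8 and 14.2 CPM (adjusted p = 0.138), and Slc7a2 at 2.43 and 1.21 against 4.77, 1.00 and 2.03. Slc38a2, a glutamine and alanine importer, was at 159 and 189 CPM in sham and 123, 245 and 200 in pIVCL. Its pIVCL libraries lay on both sides of sham. The value of pIVCL 1 was below both sham libraries (log2 fold change -0.52 within batch 2021.3), and those of pIVCL 2 and pIVCL 3 were above them. Batch 2021.7 holds no sham library, so no direction can be given within it. All 5 libraries together gave 0.12 (edgeR adjusted p = 0.813). Slc7a11 was below the 200-molecule threshold.

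Transporters of inorganic ions and pH gave 4 lower genes and none higher among 21 tested of 26. Slc26a10 was at 206 and 183 CPM in the sham libraries and at 35.7, 20.5 and 25.6 in the pIVCL libraries. The groups lay far apart, at 195 ± 16.2 (SD, n = 2) and 27.3 ± 7.76 (n = 3), and the log2 fold change was -2.83 ± 0.21 (edgeR adjusted p = 0.000671) with a value of -2.47 within batch 2021.3. Over the fits that left out 1 library it ran from -3.11 to -2.66.

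The remaining 3 ion transporters changed less. Slc9a9, an endosomal sodium-proton exchanger, was at 172 and 164 CPM in sham and 90.1, 87.6 and 47.6 in pIVCL. Slc24a5 was at 48.9 and 47.8 against 31.8, 25.4 and 22.9, and Slc12a2, the sodium-potassium-chloride cotransporter NKCC1, at 20.1 and 22 against 14.3, 11.6 and 11. None of these overlapped between groups. Their log2 fold changes were -1.14 ± 0.24, -0.84 ± 0.16 and -0.76 ± 0.18 (edgeR adjusted p = 0.0319, 0.0204 and 0.0431). The scaffold gene Slc9a3r1 fell in the same cells, from 53.2 and 57.2 CPM to 37, 24.4 and 21.2 (log2 fold change -0.98 ± 0.22, edgeR adjusted p = 0.0338), while Slc9a3r2 was at 331 and 323 against 212, 281 and 178 and did not pass (adjusted p = 0.11).

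**Figure D3:**
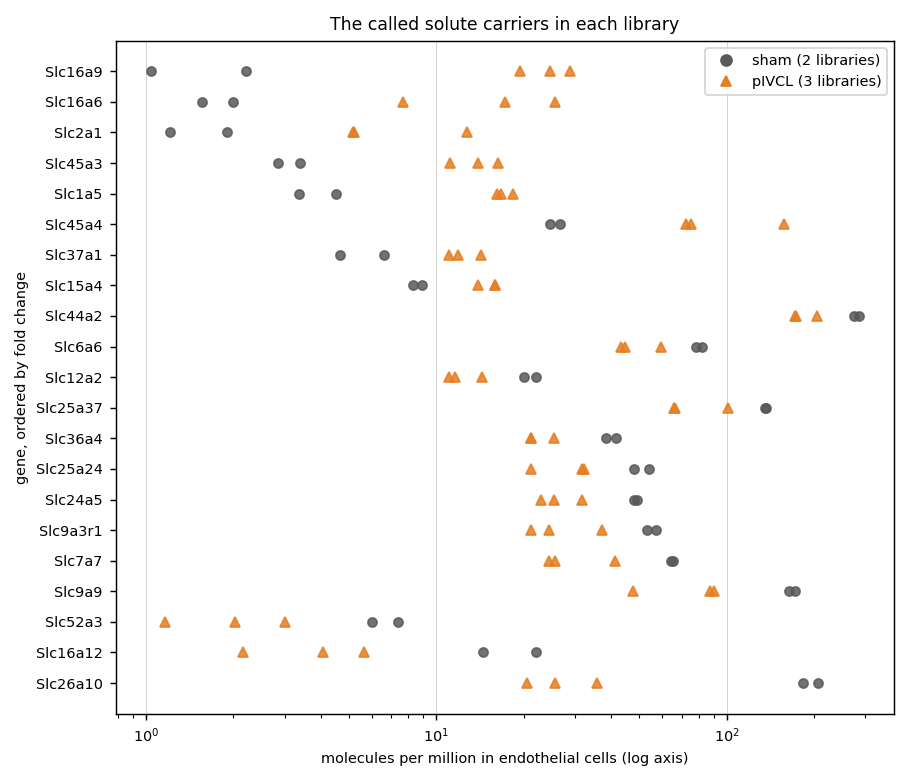
CPM in endothelial cells (log axis, x) of 21 of the 22 called solute carriers (rows, ordered by fold change) in each library, with sham as circles and pIVCL as triangles. The groups are separate in every row, from Slc26a10 at the bottom to Slc16a9 at the top. The rows were chosen by a test on these same values, so separation largely comes with the choice. The share of all genes with separate groups is not given here.

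Of 10 carriers of vitamins, choline and heme, all tested, 2 fell. Slc52a3, a riboflavin transporter, was at 7.35 and 5.98 CPM in sham and 2.03, 3.01 and 1.16 in pIVCL (log2 fold change -1.60 ± 0.36, edgeR adjusted p = 0.0342). Slc44a2, a choline transporter-like protein that is also a neutrophil antigen, was at 285 and 274 CPM against 205, 173 and 172 (log2 fold change -0.61 ± 0.13, edgeR adjusted p = 0.0287). In both the groups were apart.

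All 36 mitochondrial carriers were tested in endothelial cells, and 34 did not pass. The exceptions fell. Slc25a37, the iron importer mitoferrin 1, was at 136 and 135 CPM in sham and 101, 65.5 and 66.5 in pIVCL, and Slc25a24, the ATP-magnesium and phosphate carrier, at 53.9 and 47.8 against 31.8, 32.3 and 21.2. Their log2 fold changes were -0.80 ± 0.19 and -0.82 ± 0.18 (edgeR adjusted p = 0.0421 and 0.0355). The ADP/ATP carriers Slc25a4 and Slc25a5 were at 145 ± 10.8 and 163 ± 19.2 CPM in sham (SD, n = 2) and at 124 ± 12.3 and 122 ± 42.2 in pIVCL (n = 3), and neither passed (edgeR adjusted p = 0.322 and 0.342). The low pIVCL values of Slc25a5 came from pIVCL 2 and pIVCL 3 (96.3 and 98.8), whereas pIVCL 1 (171) lay between the sham libraries (150 and 177).

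None of the 24 metal transporters passed in endothelial cells, all of them tested, with a median log2 fold change of 0.02. The zinc exporter gene Slc30a1 was at 84.0 ± 6.44 CPM in sham and 74.7 ± 9.61 in pIVCL, and the iron and zinc importer gene Slc39a14 at 4.32 ± 0.35 and 4.67 ± 1.33. The phosphate transporter gene Slc20a1 was at 26.6 and 29.4 CPM in sham and 38.2, 29.2 and 37.5 in pIVCL, and the nucleoside transporter gene Slc29a1 at 542 and 550 against 524, 526 and 536 (edgeR adjusted p = 0.271 and 0.848). No transporter of lipids, bile acids and organic ions (11 tested of 18), of nucleosides (2 of 3), of nucleotide sugars (5 of 5) or of vesicular and lysosomal solutes (4 of 4) was called in these cells.

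**Figure D4:**
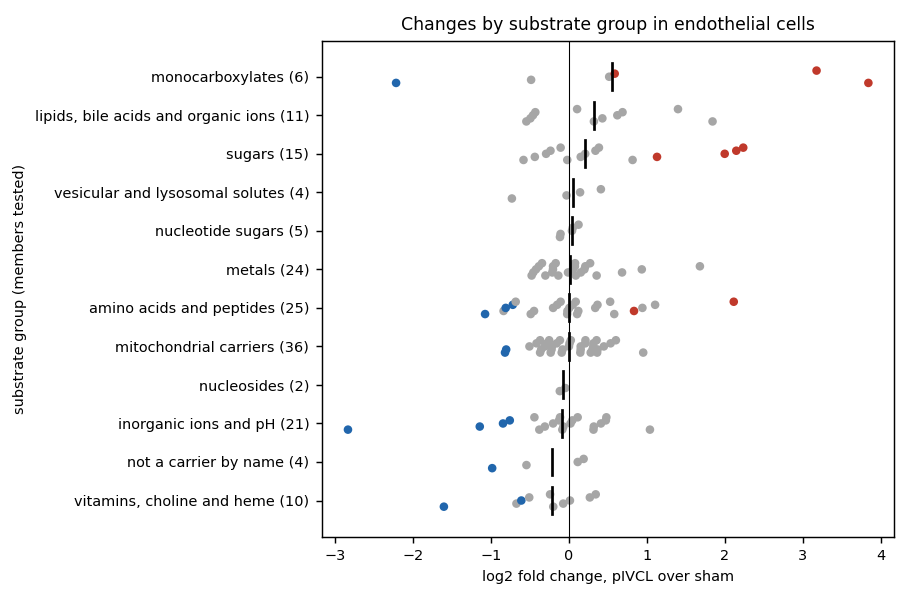
Log2 fold changes (pIVCL over sham, x axis) of the 163 solute carriers tested in endothelial cells, by substrate group (y axis, members tested in parentheses), with black bars at the group medians and red and blue points for genes called higher and lower. Called genes lie on both sides among monocarboxylate and amino acid transporters, on the right only among sugar transporters and on the left only among ion, vitamin and mitochondrial carriers.

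RNA of other cells moved with the groups in the endothelial sums. The endothelial list itself (14 genes, none at 0) was 4.03 and 3.87% of endothelial molecules in sham and 3.45, 3.32 and 3.10% in pIVCL. The summed hepatocyte list (12 genes, none at 0) was 0.0357 and 0.0193% of endothelial molecules in sham and 0.0741, 0.0614 and 0.0657% in pIVCL. The erythroid list (6 genes, none at 0) was 0.00218 and 0.00333% against 0.00692, 0.0267 and 0.0282%, and the Kupffer list (11 genes, none at 0) 0.0082 and 0.00932% against 0.0103, 0.0176 and 0.0233%. The stellate and fibroblast list (14 genes, none at 0) was 0.0518 and 0.0571% against 0.102, 0.0601 and 0.0754%, and the neutrophil list (10 genes, none at 0) 0.000216 and 0.000199% against 0.000559, 0.000904 and 0.0013%. In each of these 5 lists of other cells (hepatocyte, erythroid, Kupffer, stellate and fibroblast, neutrophil) every pIVCL library lay above both sham libraries. The plasma cell and plasmacytoid dendritic lists were also higher in every pIVCL library, and the T cell and monocyte lists were lower. Mitochondrial molecules were lower in pIVCL, at 7.33, 7.84 and 7.07% against 8.40 and 8.17%. The 20 hepatocyte-led genes summed to 243 and 216 plain CPM in endothelial cells of sham and to 268, 299 and 302 in pIVCL, and of the 15 tested none was called. The part of this RNA in the other calls was not tested. Slc10a1, defining for hepatocytes, was at 1.21 and 0.433 CPM against 3.33, 1.72 and 1.45 (edgeR adjusted p = 0.192).

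Slc16a9, Slc45a3 and Slc16a6 are abundant in Kupffer cells, so their endothelial levels were set against the Kupffer level of the same library. The macrophage gene Slc11a1 in endothelial cells was at 0.277 and 0.648% of its Kupffer level in sham and at 0.661, 0.339 and 1.76% in pIVCL. For Slc16a9 the same percentages were 0.908 and 0.50 in sham and 8.40, 9.29 and 12.3 in pIVCL. They were 2.72 and 2.61 against 7.78, 11.5 and 11.4 for Slc45a3, and 4.06 and 4.07 against 16.9, 37.7 and 43.6 for Slc16a6. These percentages differed between the genes within each library. Other classes hold these genes too: Slc16a9 was at 151 plain CPM in stellate cells and fibroblasts, and Slc16a6 at 112 in NK cells and ILC1 and 109 in T cells. The part of Kupffer, stellate or lymphocyte RNA in the endothelial rises was not tested.

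Some of the called genes overlap another gene in the RefSeq annotation, and whether the counting used strand is not given in the sources used here, so their counts may be shared. Of the 22 called genes 12 overlap a gene, and for 3 the overlapping gene was itself tested in endothelial cells. Arsg, which overlaps Slc16a6, had a log2 fold change of 0.67 ± 0.28, Myef2 (over Slc24a5) -0.23 ± 0.15 and Oxa1l (over Slc7a7) 0.22 ± 0.13 (edgeR adjusted p = 0.177, 0.363 and 0.322). B4galnt1, which overlaps Slc26a10, counted 20, 15, 13, 6 and 2 molecules in the endothelial cells of sham 1, sham 2, pIVCL 1, pIVCL 2 and pIVCL 3, and Glt1d1, which overlaps Slc15a4, at most 6 in any library.

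One endothelial cluster, cluster 18 (549 cells, with Adgrg6, Jam2, Vwf and Gja5 among its leading genes), held a similar share of endothelial cells in each library (4.42 to 6.90%). It was looked at alone after the data had been seen. In it Slc26a10 was at 207 and 208 CPM in sham and at 119, 122 and 228 in pIVCL, values that overlapped, with a log2 fold change of -0.45 ± 0.25 (edgeR adjusted p = 0.494). Without that cluster the endothelial log2 fold change of Slc26a10 was -3.21. Of 81 solute carriers tested in the cluster none was called, against 0.441% of all genes tested there, and of the 13 tested genes among the 22 calls 10 had the same sign as in all endothelial cells. The difference between the cluster and the other endothelial cells was not tested, and its 48 to 185 cells per library give much less depth.

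In Kupffer cells no solute carrier passed: 0 of 152 tested, against 0.525% of all 9709 genes tested. At an unadjusted p under 0.05 there were 29, which is 19.1% of them, against 16.2% of all genes, and the DESeq2 Wald test called 1. The lowest p belonged to Slc25a24, at 29.8 and 34.8 CPM in sham and 9.53, 14.5 and 17.6 in pIVCL, a log2 fold change of -1.18 ± 0.24 (edgeR adjusted p = 0.0528), which did not pass here. Without pIVCL 1 the test called 12 of 158, and 963 of all 10128 genes (9.51%). Kupffer cells also lay in clusters that followed the batch: cluster 6 held 86.7 and 90.4% of those of sham, 68.3% of pIVCL 1 and 6.25 and 1.91% of pIVCL 2 and pIVCL 3.

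Several transporters were abundant in Kupffer cells of both groups, among them the macrophage gene Slc11a1. Slc11a1 was at 252 and 290 CPM in sham and 304, 302 and 309 in pIVCL (edgeR adjusted p = 0.561). Slc3a2 was at 467 and 416 against 541, 581 and 503, and Slc29a1 at 307 and 343 against 380, 426 and 391, in both cases with all pIVCL libraries above sham and an adjusted p of 0.308 and 0.294 in edgeR. The ADP/ATP carrier gene Slc25a5 was at 413, 420 and 408 CPM in the libraries of batch 2021.3 and at 196 and 223 in those of batch 2021.7.

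The endothelial and Kupffer changes were compared in 1 model with the library as a block. The difference passed for 8 of 181 solute carriers (4.42%), against 3.91% of all 11979 genes tested (2.3% with the endothelial change higher and 1.6% lower). In 5 of them, Slc16a9, Slc16a6, Slc1a5, Slc2a1 and Slc45a3, the endothelial change was the higher. Slc16a9 was already at 238 and 205 CPM in sham Kupffer cells and at 229, 269 and 243 in pIVCL Kupffer cells, so that the difference of log2 fold changes (endothelial minus Kupffer) was 3.68 ± 0.23 (edgeR adjusted p = 1.3e-09). For Slc2a1 the Kupffer values were 9.84 and 13.5 against 10.8, 15 and 12.4 CPM, and the difference was 2.12 ± 0.46 (edgeR adjusted p = 0.00884). For Slc1a5 they were 9.84 and 7.11 against 8.89, 11.4 and 6.44 (difference 2.12 ± 0.39, edgeR adjusted p = 0.00221).

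In the other 3 of the 8 the endothelial change was the lower. Slc25a37 stood at 22.2 and 18.1 CPM in sham Kupffer cells and 23.5, 31.5 and 35.6 in pIVCL Kupffer cells, opposite in sign to its endothelial fall, with a difference of -1.41 ± 0.27 (edgeR adjusted p = 0.012). The erythroid list (6 genes, 1 at 0) was 0.000788 and 0.00404% of Kupffer molecules in sham and 0.00608, 0.104 and 0.153% in pIVCL 1, 2 and 3. The part of erythroid RNA in the Kupffer values of Slc25a37 was not tested. The differences for Slc6a6 and Slc7a7 were -0.91 ± 0.14 and -0.73 ± 0.17 (edgeR adjusted p = 0.00031 and 0.0165). Slc16a9, Slc45a3, Slc16a6 and Slc6a6 passed in every fit that left out 1 library. The call of Slc1a5 was lost without sham 1 (adjusted p = 0.209 in edgeR), and those of Slc2a1, Slc25a37 and Slc7a7 without either sham library (adjusted p of up to 0.175, 0.103 and 0.247 over all fits that left out 1 library). Slc2a1 was also lost without pIVCL 3, Slc25a37 without pIVCL 2 and Slc7a7 without either of these. In number, 4 differences passed without sham 1 (0.83% of all genes) and 19 without pIVCL 1 (7.24% of all genes).

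**Figure D5:**
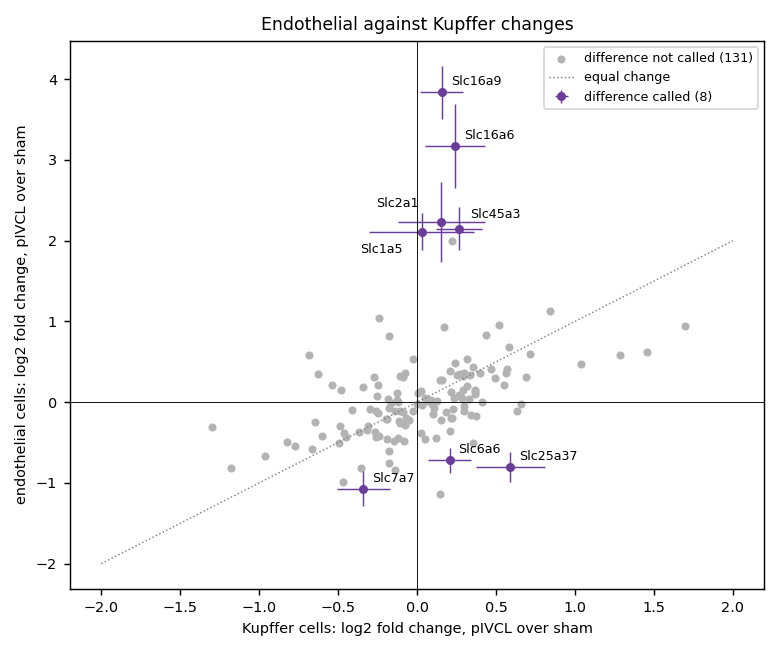
Log2 fold change (pIVCL over sham) in endothelial cells (y axis) against that in Kupffer cells (x axis) for the 139 solute carriers tested in both, with bars of 1 SE on the 8 whose difference was called and a dotted line of equal change. The 5 rising endothelial genes lie near 0 on the Kupffer axis, and Slc25a37 lies below 0 in endothelial and above 0 in Kupffer cells.

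In stellate cells and fibroblasts 1 of 98 solute carriers tested was called (1.02%), against 2.34% of all 7598 genes tested. Slc8a1, the plasma membrane sodium-calcium exchanger NCX1, was at 62.9 and 155 CPM in sham and at 7.99, 16.2 and 20.3 in pIVCL. The log2 fold change was -2.98 ± 0.45 (edgeR adjusted p = 0.00934). The groups did not overlap, but the sham values lay far apart. The call was lost without sham 2 (adjusted p = 0.0848 in edgeR) and with stricter cell filters (adjusted p = 0.126). The fibroblast-led cluster 3 made up 20 of 82 and 42 of 62 cells of this class in sham 1 and sham 2, and 30 of 297, 18 of 272 and 20 of 105 in pIVCL 1, 2 and 3. The share of cluster 3 was 24.4 and 67.7% in sham 1 and sham 2, and 10.1, 6.62 and 19.05% in pIVCL 1, 2 and 3. Every pIVCL library lay below both sham libraries in this share as well as in Slc8a1, and sham 2 was highest in both. Between pIVCL 1 and pIVCL 2 the order of share and of Slc8a1 was opposite. In the stellate-led cluster alone none of 83 solute carriers was called and Slc8a1 did not pass the count filter. The part of the fibroblast share in the call was not tested. In sums over a class, fewer cells of a type and less RNA per cell cannot be told apart.

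In T cells 0 of 72 solute carriers passed, against 0.0984% of all 6100 genes tested. At an unadjusted p under 0.05 there were 8, or 11.1%, against 9.89% of all genes. Slc50a1, a sugar transporter, was at 77.2 and 92.1 CPM in sham and 38.9, 13.1 and 25.4 in pIVCL, with no overlap and a log2 fold change of -1.78 ± 0.39 (edgeR adjusted p = 0.0885). In NK cells and ILC1 16 members were tested and none passed, as was the case for all 2879 genes (0%), and none had an unadjusted p under 0.05 in edgeR, against 8.09% of all genes. B cells, monocytes, neutrophils, hepatocytes and cholangiocytes had too few cells in some library for a test.

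Neighbouring transport genes outside the Slc symbols were followed in endothelial cells from lists of related genes. Of 32 carriers with other names that were tested, 1 rose and 1 fell. Over all genes tested in these cells 6.22% were called, which is the share to hold beside this list and those below. Spns2, the exporter of sphingosine 1-phosphate, was at 84.2 and 87.3 CPM in sham and 176, 176 and 234 in pIVCL (log2 fold change 1.19 ± 0.16, edgeR adjusted p = 0.00573). Slco2a1, the prostaglandin transporter, was at 482 and 388 CPM in sham and 105, 58.3 and 49.4 in pIVCL (log2 fold change -2.60 ± 0.31, edgeR adjusted p = 0.00681). In both genes the groups were apart.

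Among 22 ABC transporters tested 2 rose, the cholesterol exporter gene Abca1 and the potassium channel subunit gene Abcc9, with log2 fold changes of 1.35 ± 0.23 and 2.52 ± 0.41 (edgeR adjusted p = 0.0168 and 0.0202). Of 10 subunits of the sodium pump and carrier partners Tmem30a fell (-0.60 ± 0.12, adjusted p = 0.0266). Of 15 targets of the amino acid stress factor ATF4 that are not carriers 3 rose (Shmt2, Chac1 and Sesn2, by 0.80 to 1.22 on the log2 scale, edgeR adjusted p = 0.0266 to 0.0425), with a list median of 0.68 against 0.01 over all genes. Of 21 hypoxia and glycolysis genes 1 rose, Adm (1.80 ± 0.21, edgeR adjusted p = 0.00359), with a list median of 0.20. None of 12 metal handling genes or 2 aquaporins was called.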

How the data were processed

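Liver non-parenchymal cells of sham (2 libraries) and pIVCL (3 libraries) mice were captured with BD Rhapsody. The authors deposited molecule counts for each cell, with molecular identifiers already corrected; per the submitters' processing notes they used the BD Rhapsody pipeline 1.9.1 and GRCm39. Aligner, annotation and strand setting: not given in the sources used here. Cells with at least 500 molecules, at least 200 genes and at most 25% mitochondrial molecules were kept, and the 3% with the highest doublet score in each library (518 cells) were removed, because the automatic threshold marked only 14. Leiden clusters (scanpy 1.11.5, 30 components, 20 neighbours, resolution 1, solute carriers left out) were named after a class if 3 or more of its markers, and no fewer than 50%, were detected. Of 31 clusters 12 stayed unnamed (2186 cells), 11 of them for markers of a second class. No correction for free RNA was made.

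Counts were summed per class and library and compared with edgeR 4.0.16 (quasi-likelihood, TMM, robust dispersion), with adjustment over all genes tested in a class that had at least 20 cells in every library. The test was checked on simulated data. The replicate numbers were not taken as pairs of samples. Named were all genes passing in a class, the 4 leading genes of each class by ratio to the next, a fixed set of transporters, the genes beside the molecule threshold and the members of lowest p of related lists. Some genes that this rule takes are not reported here by name, but are included in the counts. Members, lists and rules were chosen with earlier results of these data known. Alternatives were DESeq2 1.42.0, other filters, scaling, clustering and doublet settings, batch, and leaving out each library. The subsets by cluster were added after the data were seen.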

Additional observations from a re-analysis of the deposited data

Results flagged for a closer look

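For 8 solute carriers the change after ligation differed between endothelial and Kupffer cells by a test of the difference itself (edgeR quasi-likelihood interaction, adjusted over all genes). These are 4.42% of the 181 tested, against 3.91% of all 11979 genes. The difference of log2 fold changes, endothelial minus Kupffer, was 3.68 for Slc16a9, 2.94 for Slc16a6, 2.12 for Slc1a5, 2.12 for Slc2a1, 1.88 for Slc45a3, -0.73 for Slc7a7, -0.91 for Slc6a6 and -1.41 for Slc25a37. The first 5 rose in endothelial cells and the last 3 fell there, and none passed the test within Kupffer cells.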

How the results depend on the processing

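All values are counts of solute carriers called, against 9 higher and 13 lower in endothelial cells, 0 in Kupffer cells, 1 in stellate cells and fibroblasts, 0 in T and NK cells and 8 for the endothelial against Kupffer difference. With 1 library left out at a time, the endothelial counts ran from 2 to 21 higher and from 1 to 26 lower, the Kupffer count from 0 to 12, the stellate and fibroblast count from 0 to 3, the T and NK count from 0 to 2, and the count of differences from 4 to 19. In most classes the largest of these came without pIVCL 1, and the cause was not tested. With no filter on low counts 14 were higher and 26 lower in endothelial cells, and 6 in Kupffer cells, 5 in stellate cells and fibroblasts and 1 in T and NK cells were called. Of all genes, 11.3% were then called in endothelial cells, 3.55% in Kupffer cells and 4.53% in stellate cells and fibroblasts. With batch as a term 5 were higher and 5 lower in endothelial cells, where 3.95% of all genes were called. Batch 2021.3 alone gave 1 in Kupffer cells and 2 in stellate cells and fibroblasts, and there Slc38a2 in endothelial cells turned to -0.52 (log2). The DESeq2 Wald test and the finer clustering each called 1 in Kupffer cells, and keeping doublets gave 13 of 121 in stellate cells and fibroblasts, where 865 of all 8516 genes (10.2%) were then called. Libraries of the same replicate number had correlations of deviations from -0.15 to 0.08. The deviations of the 2 sham libraries mirror each other, so these values cannot tell whether the numbers mark paired samples. With the replicate number as a block 7 were higher and 5 lower in endothelial cells, 1 was called in Kupffer cells and 4 in stellate cells and fibroblasts. Of all genes, 3.27, 0.360 and 3.58% were then called in these classes. Of the subsets chosen after seeing the data, endothelial cluster 18 alone gave 0 higher and 0 lower, with fewer cells and genes tested, and the log2 values of Slc12a2, Slc25a24 and Slc25a37 turned to 0.28, 0.10 and 0.060. The stellate-led cluster alone gave 0. DESeq2 size factors, stricter cell filters and the removal of other cells' marker lists kept each of these counts within 1.5 times. With 2 sham libraries and few cells outside the endothelial and Kupffer classes, small changes were not detectable, and each pIVCL library held fewer molecules than either sham library, in all cells and in endothelial cells.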
